A study of Mus musculus with 4 samples.

Results

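The genes described here are 7 CC chemokines of monocytes and macrophages (Ccl2, Ccl6, Ccl7, Ccl8, Ccl9, Ccl12 and Ccl24) and the receptor Ccr2, chosen by their symbols, 8 of the 27998 genes in the count matrices. The cells were immune cells of B16F10-OVA tumours (a melanoma line of the mouse, here with ovalbumin as model antigen) grown under the skin of C57BL/6 mice. The hosts were wild-type or lacked miR-155 in their T cells by conditional knockout (miR-155 TCKO, called knockout here). The T cell promoter that drives the recombinase, and the age and sex of the mice, are not given in the sources used here. Tumours of more than 4 mice per group were pooled on day 9 or day 12, live CD45-positive cells were sorted, and each genotype and day gave 1 droplet library of 3' ends.

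CC chemokines are small secreted proteins that draw leukocytes along a gradient through G protein-coupled receptors. CCR2 brings classical monocytes out of the bone marrow and into inflamed tissue and tumours. CCL2, CCL7 and CCL12 are its main mouse ligands, CCL8 acts in the mouse largely through CCR8, CCL6 and CCL9 are ligands of CCR1, and CCL24 (eotaxin-2) acts on CCR3, a receptor of eosinophils.

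Of the genes, 6 lie on chromosome 11 of mm10 in the GENCODE vM21 annotation, in 2 clusters of neighbours: Ccl2 at chr11:82035571-82037453, Ccl7 at chr11:82045712-82047525, Ccl12 at chr11:82101845-82103400 and Ccl8 at chr11:82115185-82116799 on the plus strand, then Ccl9 at chr11:83572919-83578636 and Ccl6 at chr11:83587882-83593087 on the minus strand. Ccl24 lies at chr5:135569937-135573049 (minus strand) and Ccr2 at chr9:124101950-124113557 (plus strand). All 8 are annotated as protein coding. Reads that neighbouring paralogs could share were not examined.

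RefSeq promoter sequences of build GRCm38.p6 were matched for 5 of the 8 genes (Ccl6, Ccl8, Ccl9, Ccl12 and Ccr2). The 250 bases before the start of Ccl6 and Ccl9 are shown because the levels of that pair rose and fell together across subsets. Those of Ccl12 and Ccl8 are shown because, of these neighbours, Ccl8 was called between the days in the fits below and Ccl12 was not. Capitals mark the longest run of bases that a gene shares exactly with its partner in the pair. Ccl12 and Ccl8 share further runs of the same length, and only the first is marked.

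Ccl6 (chr11:83593088-83593337, minus strand): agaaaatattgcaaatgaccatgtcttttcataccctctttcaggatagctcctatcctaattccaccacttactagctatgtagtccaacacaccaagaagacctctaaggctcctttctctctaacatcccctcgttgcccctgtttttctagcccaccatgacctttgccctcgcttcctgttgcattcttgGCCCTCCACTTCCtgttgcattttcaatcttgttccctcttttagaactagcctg
Ccl9 (chr11:83578637-83578886, minus strand): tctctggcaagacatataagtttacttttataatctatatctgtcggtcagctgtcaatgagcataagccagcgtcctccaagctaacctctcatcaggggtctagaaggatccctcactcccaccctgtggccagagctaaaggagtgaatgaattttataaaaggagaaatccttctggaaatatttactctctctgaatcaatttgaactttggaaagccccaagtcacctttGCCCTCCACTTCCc
Ccl12 (chr11:82101595-82101844, plus strand): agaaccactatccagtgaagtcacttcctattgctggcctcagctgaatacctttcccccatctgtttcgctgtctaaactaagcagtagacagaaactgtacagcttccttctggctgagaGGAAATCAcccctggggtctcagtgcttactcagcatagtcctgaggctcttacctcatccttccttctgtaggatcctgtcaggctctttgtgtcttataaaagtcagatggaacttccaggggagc
Ccl8 (chr11:82114935-82115184, plus strand): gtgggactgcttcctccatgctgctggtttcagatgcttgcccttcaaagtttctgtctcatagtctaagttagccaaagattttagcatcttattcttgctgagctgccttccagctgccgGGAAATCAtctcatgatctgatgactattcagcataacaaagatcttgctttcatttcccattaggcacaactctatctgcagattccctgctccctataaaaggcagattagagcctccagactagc

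The Ccl6 and Ccl9 sequences shared a run of 13 bases and were identical at 47.4% of aligned positions, where the 10 pairs of the 5 genes ranged from 42.4% to 57.5%. Ccl12 and Ccl8 had the highest identity of the 10 pairs, 57.5%, with a shared run of 8 bases at the same distance from the start. On either strand, TATAAA matched at 3 positions before Ccl9 and at 1 each before Ccl12 and Ccl8, against 12.4% of all 32851 promoters in the table with a match. Before Ccl9, matches on opposite strands overlapped in 1 stretch. GAGGAA, the core bound by PU.1 and other Ets factors, occurred in 1 place each before Ccl12 and Ccl8 (23.3% of all promoters hold it). The STAT motif TTCNNNGAA had no match in the 5 sequences (7.02% of all promoters hold it). A match describes letters in the window and not a bound site.

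After filtering, the libraries held 1752 cells (wild-type, day 9), 3625 cells (knockout, day 9), 3566 cells (wild-type, day 12) and 2001 cells (knockout, day 12), with median depths of 7264 to 9542.5 UMIs (unique molecular identifiers, each standing for 1 captured transcript). In T cells Mir155hg, the host gene of miR-155, had 89 UMIs in wild-type at day 9, 23 in wild-type at day 12 and 0 in both knockout libraries. Cells were assigned by detected marker genes, none of them among the 8 genes chosen here. Other chemokine genes did serve as markers: Ccl22 and the receptor Ccr7 for mature dendritic cells, and Cxcl9 and Cxcl10 for a macrophage subset. As monocytes or macrophages 4499 cells passed (247, 1772, 1610 and 870 in the library order above). Pairs of libraries shared 4 to 16 cell barcodes. Classical monocytes made up 25.9% and 33.6% of the class at day 9 in wild-type and knockout, and 8.63% and 12.8% at day 12. Macrophages positive for Gbp2b and Il18bp made up 23.9% in both wild-type libraries and 1.13% and 0.575% in the knockout libraries of day 9 and day 12. Macrophages that carried Lyve1, Folr2 or Cd163 numbered 1 and 2 at day 9 and 132 and 107 at day 12. Levels are given as CPM, UMIs of the gene per 1000000 UMIs of the class in that library, and every interval is at 95% and covers counting error only.

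Every one of the 7 chemokines was concentrated in myeloid cells. Ccl2, the main CCR2 ligand, stood at 1741, 2367, 1948 and 2059.8 CPM over all monocytes and macrophages in the order wild-type day 9, knockout day 9, wild-type day 12 and knockout day 12. The 4 libraries lay within 1.36-fold of each other, and the share of cells with a Ccl2 UMI was 69.2%, 58.3%, 79.2% and 76.1% after thinning each cell to 3000 UMIs (77.3%, 72.2%, 88.0% and 84.8% before). Ccl7, a further CCR2 ligand, stood at 1273, 1229, 1819 and 2059.9 CPM, with both day 12 libraries above both of day 9. Ccl12, the third CCR2 ligand, stood at 715, 384, 802 and 700.0 CPM, lowest in the knockout library of day 9.

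Among macrophage subsets the CCR2 ligands were spread broadly. In wild-type at day 9 macrophages positive for Gbp2b and Il18bp held the most, 35.7% of Ccl2, 42.7% of Ccl7 and 37.9% of Ccl12 UMIs of the class. Their Ccl2 level was 2335 CPM in wild-type at day 9 and 1800 in wild-type at day 12. Cxcl9 and Cxcl10 macrophages had 2186, 1495, 2769 and 2801 CPM of Ccl2 in the library order above. Arg1-positive macrophages, which express the arginine-degrading enzyme arginase 1, held 4897 CPM of Ccl2 in the knockout library of day 9, 2599 in wild-type at day 12 and 2849 in knockout at day 12. Macrophages with Spp1, Trem2, Gpnmb and Fabp5, genes of lipid handling and matrix contact, held 4424, 3022 and 2033 CPM in the same 3 libraries. Classical monocytes, marked by Ly6c2 and Plac8, had 1391, 1523, 1492 and 1178 CPM in the library order above. Non-classical monocytes had 542 CPM in the knockout library of day 9, the only library with 30 or more of them. Mrc1 macrophages, which carry the mannose receptor, had 857, 3289, 1831 and 2261 CPM, below classical monocytes in wild-type at day 9 and above them in the other 3 libraries.

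In dendritic cells the same ligands dropped towards the level of lymphocytes. Type 2 conventional dendritic cells (cDC2) had 39.6, 132, 298 and 219 CPM of Ccl2, against 4.92, 26.8, 35.3 and 16.1 CPM in T cells of the same libraries. The first value rests on 29 UMIs, 86.2% of them in 1 of 64 cells, and with the highest cell of each library left out cDC2 had 5.57, 105, 274 and 185 CPM. Mature dendritic cells, which carry Ccr7 and Fscn1 and travel to lymph nodes, had 10.1, 28.7, 28.6 and 20.2 CPM, values near those of T cells in each library. Type 1 conventional dendritic cells (cDC1) varied most, with 10.4, 280, 134 and 38.2 CPM, and 26.6% of the UMIs of the knockout library of day 9 came from 1 cell.

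**Figure D1:**
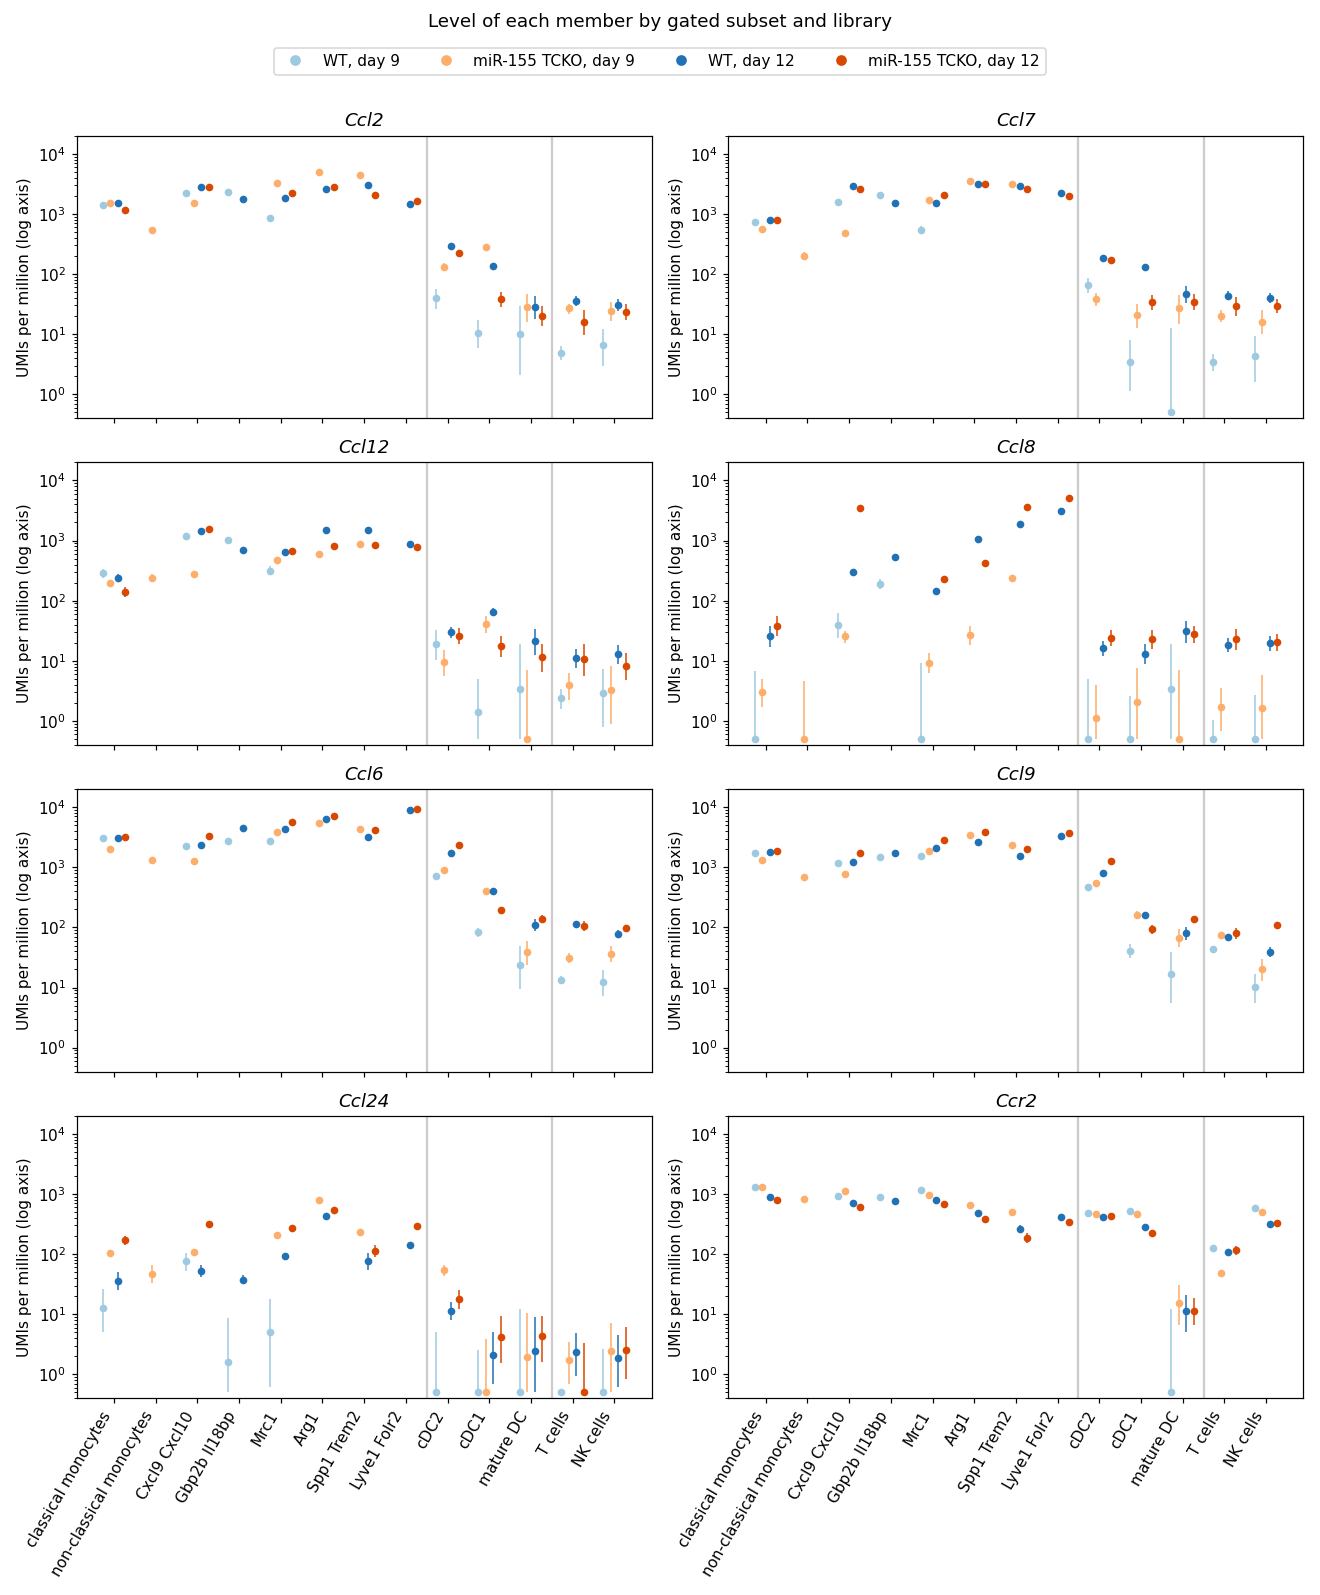
Level of each gene (CPM of the subset, log axis) in each marker-gated subset with at least 30 cells, 1 point per library, bars are exact Poisson intervals (95%) and values under 0.5 are drawn at 0.5. Ccl2, Ccl7 and Ccl12 fall steeply from macrophages to dendritic cells, Ccl6 and Ccl9 stay high into cDC2, Ccl8 separates the days, and Ccr2 is low in mature dendritic cells and high in NK cells.

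An edgeR quasi-likelihood fit covered the 6 subsets that reached 30 cells in each of the 4 libraries, with the library as a block and each subset set against the mean of the other 5. In classical monocytes 7 of the 8 genes were higher at an adjusted p under 0.05 (18.9% of all 8755 genes were), and Ccl8 was not called (log2 difference -1.05, SE 0.48, adjusted p = 0.101). In Cxcl9 and Cxcl10 macrophages, which carry interferon-induced chemokines, all 8 were higher (19.8% of all genes), as in Mrc1 macrophages (20.4% of all genes). In cDC1 7 were lower (18.6% of all genes) and Ccr2 was not called (0.08, SE 0.13, adjusted p = 0.675). In mature dendritic cells 7 were lower (31.5% of all genes) and Ccl8 was not called (-1.18, SE 0.53, adjusted p = 0.0585). That gene was called lower with scaling by library totals (-1.59, adjusted p = 0.0130) and without the wild-type library of day 12 (-1.58, adjusted p = 0.0210). The subsets include 3 of monocytes or macrophages and 3 of dendritic cells, so each contrast mixes both kinds.

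cDC2 split the genes. Ccl2, Ccl7, Ccl12 and Ccl8 were lower there (4 of 8, against 9.39% of all genes), by log2 differences from -1.45 (Ccl2, SE 0.38, adjusted p = 0.00602) to -2.76 (Ccl12, SE 0.45, adjusted p = 4.58e-05). Ccr2 was higher (1 of 8, against 16% of all genes) by 0.43 (SE 0.12, adjusted p = 0.0121). That call was lost without the wild-type library of day 12 (0.41, adjusted p = 0.111), without the knockout library of day 12 (0.35, adjusted p = 0.113) and with no doublet removal (0.22, adjusted p = 0.272). Ccl6 (0.48, SE 0.24, adjusted p = 0.144), Ccl9 (0.42, SE 0.20, adjusted p = 0.118) and Ccl24 (-0.18, SE 0.46, adjusted p = 0.832) were not called in cDC2, though a stricter gate called Ccl6 (0.73, adjusted p = 0.00122) and Ccl9 (0.70, adjusted p = 0.00177) higher.

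Ccl6 and Ccl9, the CCR1 ligands, were found in nearly all monocytes and macrophages. Ccl6 stood at 2532, 2759, 4429 and 5800.4 CPM and Ccl9 at 1397, 1536, 1947 and 2804 CPM over the class, each lowest in wild-type at day 9 and highest in knockout at day 12. A Ccl6 UMI was present in 93.1% to 99.7% of the cells of a library and a Ccl9 UMI in 90.2% to 97.8%. Macrophages with Lyve1, Folr2 or Cd163, genes of tissue-resident macrophages, had the highest Ccl6 among the subsets of day 12, 9021 CPM in wild-type and 9490.1 in knockout. In cDC2 Ccl6 stood at 730.3, 889, 1738 and 2322 CPM and Ccl9 at 476, 539, 800 and 1267 CPM, above every cDC1 and mature dendritic cell value. Over 26 points (a monocyte or macrophage subset in a library with at least 30 cells) the log2 levels of Ccl6 and Ccl9 had a Pearson r of 0.96. Of all pairs of these 8 genes that was the highest, ahead of Ccl2 and Ccl7 (0.85). The points share libraries and depth, so the correlation is a description.

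Ccl8 differed most between the days. Over monocytes and macrophages the wild-type level was 92.6 CPM (80.8 to 106) at day 9 and 682 CPM (668 to 695) at day 12. The knockout level was 84.0 CPM (79.8 to 88.3) at day 9 and 1534 CPM (1509 to 1560) at day 12. Cells with a Ccl8 UMI rose from 4.0% and 3.3% at day 9 to 28.5% and 37.0% at day 12, or from 3.6% and 1.7% to 17.8% and 22.9% after thinning. At day 9 the signal came from very few cells, since 1 cell held 35.9% of the Ccl8 UMIs in wild-type and 41.6% in knockout. At day 12 the macrophages with Lyve1, Folr2 or Cd163 held 46.7% of all Ccl8 UMIs of the class in wild-type and 54.5% in knockout, at 3121 and 5022 CPM. Without those cells the class stood at 93.0, 49.1, 405 and 837 CPM, so day 12 remained above day 9 in both genotypes. Even at day 12, 24 of 1610 wild-type cells and 13 of 870 knockout cells held 50% of the Ccl8 UMIs.

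**Figure D2:**
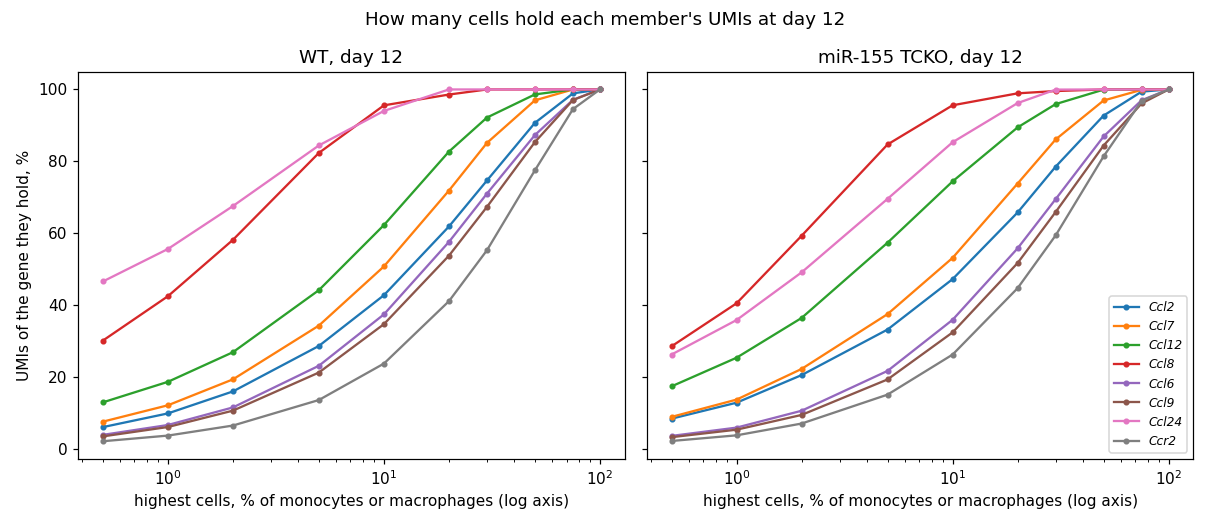
Percentage of a gene's UMIs (vertical axis) held by the highest-ranked percentage of monocytes and macrophages (horizontal axis, log scale) in the 2 libraries of day 12, 1 line per gene. The top 10% of cells held 95.6% of Ccl8 UMIs in both libraries and 94.0% (wild-type) and 85.3% (knockout) of Ccl24 UMIs, but 37.4% and 35.9% of Ccl6 UMIs and 23.7% and 26.2% of Ccr2 UMIs.

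Ccl24 was the member with the clearest difference between genotypes. At day 9 wild-type stood at 24.0 CPM (18.2 to 31.1) and knockout at 174 CPM (168 to 180). At day 12 wild-type stood at 87.3 CPM (82.5 to 92.3) and knockout at 275 CPM (264 to 286). Both knockout libraries lay above both wild-type libraries. A Ccl24 UMI was present in 4.9% and 13.6% of cells at day 9 and 14.6% and 30.1% at day 12 (wild-type, then knockout), or 2.4%, 7.8%, 8.2% and 19.5% after thinning. Expression was concentrated: 2 of 247, 15 of 1772, 12 of 1610 and 19 of 870 cells held 50% of the UMIs. With the highest cell of each library left out the levels were 14.3, 159, 75.7 and 249.5 CPM. Arg1-positive macrophages had the highest level, 807 CPM in knockout at day 9, 428 in wild-type at day 12 and 545 in knockout at day 12, and wild-type at day 9 had 1 such cell. That subset made up 0.405% (wild-type) and 5.93% (knockout) of the class at day 9, and 6.21% and 12.3% at day 12. Outside that subset the knockout level was also above wild-type in classical monocytes (106 against 12.7 CPM at day 9, 171 against 36.4 at day 12), in Mrc1 macrophages (205 against 5.1, 271 against 92.9) and in Cxcl9 and Cxcl10 macrophages (109 against 76.0, 312 against 52.7). The 2 UMIs of wild-type Mrc1 macrophages at day 9 make that ratio imprecise (40.5, interval 11.2 to 335).

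Ccr2, the receptor, followed another order. Classical monocytes had the highest level of the 6 subsets compared in 4 of 4 libraries, with 1331, 1284, 879 and 810 CPM. Mrc1 macrophages were lower by 0.25 on the log2 scale (SD 0.13 over 4 libraries, lower in 4 of 4), whereas Mrc1 and Cxcl9 and Cxcl10 macrophages differed by 0.12 (SD 0.25), which is within the spread. Macrophages with Spp1 and Trem2 had 509, 262 and 188 CPM in the 3 libraries with at least 30 of them, and those with Lyve1, Folr2 or Cd163 had 421 and 344 CPM at day 12. cDC2 had 487, 456, 415 and 428 CPM, with a spread of 0.10 on the log2 scale, the smallest of any gene and subset compared. Mature dendritic cells had 0, 15.3, 11.2 and 11.5 CPM, the 0 allowing up to 10.1 CPM at 3 UMIs. Over the 26 monocyte and macrophage points Ccr2 had a negative correlation with 7 of 7 chemokines, from -0.30 (Ccl2) to -0.79 (Ccl8), again as a description.

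Over the 4 libraries, an edgeR quasi-likelihood fit with day and genotype as terms called 1 of the 8 genes for genotype in monocytes or macrophages. Ccl24 was higher in knockout by 2.15 on the log2 scale (SE 0.26, adjusted p = 0.0129), where 0.545% of the 10645 genes were called higher. None was called lower (0.413% of all genes were). Ccl12 had the next smallest p (log2 difference -0.56, SE 0.20, adjusted p = 0.357), and the other 6 had adjusted p from 0.609 to 0.961. The fit has 1 residual degree of freedom and 1 library per genotype and day. Its p-values rest on how far the 4 libraries depart from additive day and genotype terms, moderated by information from all genes. They do not measure the spread among libraries of the same genotype and day. With genotype as the only term, Ccl24 kept a difference of 1.95 but had an adjusted p of 1.00. The neutrophil marker list summed to 45.9, 65.8, 38.8 and 58.1 CPM in the class and the melanoma list to 7.16, 62.7, 17.1 and 23.2 CPM. Those lists had 3, 5, 5 and 5 of 5 and 4, 5, 5 and 5 of 5 members detected. The erythroid list summed to 1.68, 6.71, 3.52 and 13.8 CPM, with 4 of 4 members detected in each. For the neutrophil, melanoma and erythroid lists alike, both knockout libraries were above both of wild-type. The part of these lists, and of the shift in subsets between the genotypes, in the Ccl24 difference was not tested.

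**Figure D3:**
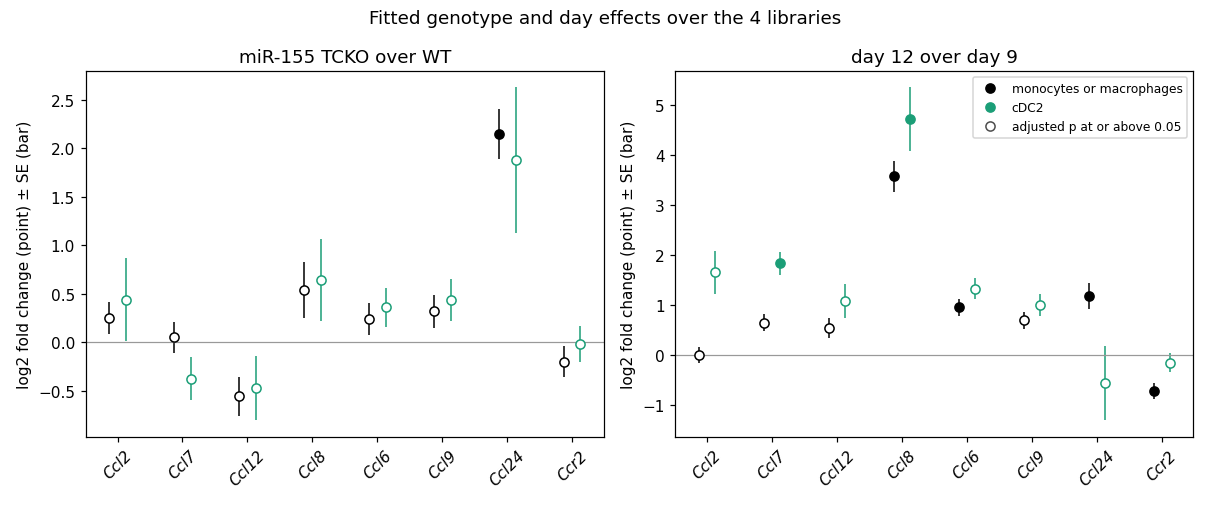
Log2 fold change ± SE of each gene from the fits over 4 libraries, knockout over wild-type (left) and day 12 over day 9 (right), in monocytes or macrophages (black) and cDC2 (green), filled where the adjusted p is under 0.05. Ccl24 is the filled point on the left, and Ccl8 has the highest values on the right.

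For the day, the same fit called 4 of the 8 genes. Ccl8 (3.58, SE 0.31, adjusted p = 0.00141), Ccl24 (1.18, SE 0.25, adjusted p = 0.0342) and Ccl6 (0.96, SE 0.17, adjusted p = 0.0178) were higher at day 12, 3 of 8 against 2.49% of all genes. Ccr2 was lower at day 12 (-0.72, SE 0.16, adjusted p = 0.0382), 1 of 8 against 3.46% of all genes. Ccl7 (0.65, SE 0.16) and Ccl9 (0.69, SE 0.17) each had an adjusted p of 0.0565, Ccl12 (0.54, SE 0.20) of 0.164 and Ccl2 (0.00, SE 0.17) of 0.996. The median log2 difference of the 8 genes was 0.67, against 0.03 over all genes. The day and the preparation of a library cannot be told apart, nor, for the class as a whole, can levels within a subset from the shift in subsets given above. Ccl7 and Ccl9 passed with no doublet removal (adjusted p = 0.0459 and 0.0443) and with a mitochondrial limit of 5% (0.0379 and 0.0357), which made 6 of 8 called, and Ccl7 passed without the cells of the Lyve1, Folr2 and Cd163 gate (adjusted p = 0.0391). The Ccl24 call was lost with a stricter gate (1.37, adjusted p = 0.0685) and with clusters in place of gates (0.87, adjusted p = 0.0595), and with the day as the only term none of the 8 passed.

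Within subsets the day difference of Ccl6 held in Mrc1 macrophages (2723 and 3934 CPM at day 9, 4313 and 5730 at day 12, wild-type then knockout). In classical monocytes the wild-type libraries were alike, 3046 CPM at day 9 and 3072 at day 12, while the knockout libraries had 2050 and 3183 CPM. Ccr2 was lower at day 12 than at day 9 in classical monocytes, Cxcl9 and Cxcl10 macrophages and Mrc1 macrophages of both genotypes. In classical monocytes the knockout ratio of day 12 to day 9 was 0.63 (0.58 to 0.68).

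In cDC2, genotype called 0 of the 8 genes (0.0252% of 7928 genes, with 1 of the 8 at an unadjusted p under 0.05, and 0 of the 8 by DESeq2). The day called 2, both higher at day 12 (0.114% of all genes were): Ccl7 (1.83, SE 0.23, adjusted p = 0.034) and Ccl8 (4.73, SE 0.63, adjusted p = 0.0478). Ccl7 stood at 65.5, 38.4, 185 and 168 CPM in cDC2 and at 3.43, 19.97, 43.8 and 29.5 CPM in T cells. All 48 Ccl7 UMIs of wild-type cDC2 at day 9 were in 1 of 64 cells, and with the highest cell of each library left out cDC2 had 0, 25.2, 159 and 117 CPM, above the T cells in the other 3 libraries. Unsupervised clusters divided the gated cDC2. A cluster led by Cd209a, Ifitm1 and Mgl2 held 73.4%, 57.9%, 61.5% and 45.1% of them, with Ccl7 at 0, 19.5, 39.8 and 27.8 CPM, near the T cells. A second cluster, whose leading genes included Retnla, Mgl2 and Ear2 along with the macrophage genes C1qa and C1qb, held 17.2%, 7.59%, 23.7% and 30.9%, with Ccl7 at 0, 39.4, 131 and 101 CPM. A cluster named as monocytes or macrophages held 0%, 0%, 1.77% and 10.5% of them, with Ccl7 at 1320 and 802 CPM in the last 2 libraries, and another held 0%, 8.97%, 2.12% and 0.617%, with Ccl7 at 52.2, 170 and 0 CPM in the last 3. The part of this shift in the day difference was not tested. Ccl8 stood at 0, 1.11, 16.4 and 24.2 CPM, and T cells of the same libraries had 0.44, 1.70, 18.7 and 23.3 CPM. The Ccl8 values of cDC2 were at the level of lymphocytes, and the part of free RNA in that call was not tested. The Ccl7 call was lost with a stricter gate (1.37, adjusted p = 0.239) and the Ccl8 call by DESeq2 (adjusted p = 0.110).

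At each day taken alone there is no replicate and no test. A difference of at least 2-fold between knockout and wild-type was used as the measure in monocytes or macrophages. At day 9, 1 of the 8 genes was higher (5.49% of 10309 genes were) and 0 were lower (4.51% were). That gene was Ccl24, with a ratio of 7.24 (5.57 to 9.58), or 11.1 with the highest cell of each library left out. At day 12, 2 were higher (2.97% of 10666 genes) and 0 were lower (1.53%), namely Ccl24 with 3.15 (2.94 to 3.37) and Ccl8 with 2.25 (2.19 to 2.31). Ccl12 had 0.537 (0.509 to 0.567) at day 9 and 0.872 (0.846 to 0.900) at day 12. The remaining ratios lay between 0.796 (Ccr2, day 12) and 1.44 (Ccl9, day 12).

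The ratio of a class hid larger differences in its subsets. Among Mrc1 macrophages at day 9 the knockout level was 3.84 times (3.44 to 4.29) that of wild-type for Ccl2 and 3.16 times (2.76 to 3.64) for Ccl7, whereas among Cxcl9 and Cxcl10 macrophages it was 0.68 (0.64 to 0.73) and 0.30 (0.28 to 0.33). Ccl12 showed the lowest of these values, 0.235 in Cxcl9 and Cxcl10 macrophages of day 9 (0.252 with the highest cell of each library left out). At day 12 the ratios of Ccl2 in those 2 subsets were 1.23 and 1.01. The wild-type side of day 9 was 39 Mrc1 and 47 Cxcl9 and Cxcl10 macrophages, against 221 and 328 in knockout. The gate for Gbp2b with Il18bp came before that for Mrc1. At day 9 it took 23.9% of the class in wild-type and 1.13% in knockout. The wild-type cells it took had 2335 CPM of Ccl2 and 2038 of Ccl7, against 857 and 546 in wild-type Mrc1 macrophages. The part of this gate order in the Mrc1 ratios was not tested. Of all Mrc1 macrophages, 377 of 1053 passed on 1 Mrc1 UMI. The median depth of Mrc1 macrophages at day 9 was 9944 UMIs in wild-type and 12428 in knockout. For Ccl8 in Cxcl9 and Cxcl10 macrophages at day 12 the ratio was 11.7 (10.6 to 12.9), with 42.1% of the knockout UMIs in 1 of 68 cells, and 2120 against 210 CPM with the highest cell of each library left out.

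**Figure D4:**
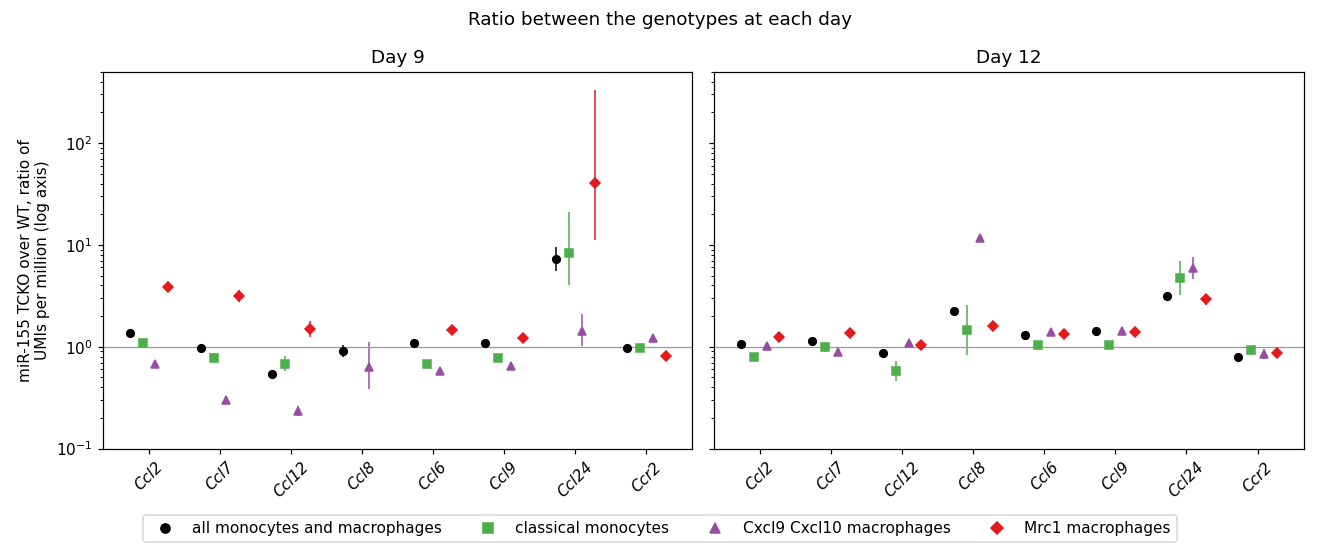
Ratio of knockout to wild-type level (CPM, log axis) at day 9 (left) and day 12 (right) for all monocytes and macrophages and 3 subsets, bars are exact conditional intervals (95%, counting error only), and a ratio to a wild-type count of 0 is not drawn. Ccl24 lies above 1 in every group shown, and the other genes spread to both sides of 1 at day 9.

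Lymphocytes gave a gauge of free RNA. The 5 macrophage genes Lyz2, Apoe, C1qa, C1qb and C1qc reached in T cells 0.16% to 0.32% of their level in monocytes or macrophages in wild-type at day 9, 0.63% to 1.36% in knockout at day 9, 1.46% to 2.77% in wild-type at day 12 and 0.81% to 5.11% in knockout at day 12. Ccl2, Ccl7, Ccl12, Ccl8 and Ccl24 lay near these ranges in T cells, from 0 (Ccl24, knockout day 12) to 2.74% (Ccl8, wild-type day 12). The gauge was lowest for wild-type at day 9, where Ccl6 in T cells reached 0.53% and lay above it.

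Ccl9 was above the gauge in T cells of 3 of the 4 libraries, all but knockout at day 12. In that library Lyz2 alone set the top of the gauge (5.11%), and Apoe, C1qa, C1qb and C1qc reached 0.81% to 1.80%. Ccl9 there reached 2.87%, or 2.29% with the highest cell left out, above all of the gauge genes but Lyz2. At day 9 it reached 44.2 CPM in wild-type, 3.17% of the monocyte and macrophage level (2.88% to 3.48%), and 75.7 CPM in knockout, 4.93% (4.40% to 5.51%). The number of Ccl9 UMIs per Ccl6 UMI was 3.29 (2.74 to 3.97) in wild-type T cells and 2.43 (1.97 to 3.01) in knockout, against 0.55 and 0.56 in monocytes and macrophages. T cells with a Cd8a or Cd8b1 UMI, 763 of the 897 wild-type T cells of day 9, held 501 of the 503 wild-type UMIs. Of those cells 12.3% had a Ccl9 UMI. In wild-type the highest cell held 9.94% of the UMIs, while in knockout 1 cell held 69.8%. With the highest cell left out, the knockout T cells of day 9 fell to 1.5% of the macrophage level, just above the gauge, and to 0.74 Ccl9 UMIs per Ccl6 UMI, while wild-type kept 2.86% and 2.96. At day 12 the ratio of the 2 genes in T cells was 0.60 and 0.76, closer to the macrophage values of 0.44 and 0.48. T cells with a Cd8a or Cd8b1 UMI then had 73.2 (wild-type) and 42.5 CPM (knockout) of Ccl9. T cells without one had 62.1 and 99.9 CPM. Wild-type T cells of day 12 reached 3.50% and, without the cell that held 25.4% of the UMIs, 2.63%, which is inside the gauge.

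NK cells also had Ccl9 above their gauge in 3 of the 4 libraries. It reached 0.72% in wild-type at day 9 (gauge 0.14% to 0.24%), 1.31% in knockout at day 9 (0.79% to 1.16%) and 3.89% in knockout at day 12 (0.84% to 1.88%), and wild-type at day 12 was inside the range with 2.02%. Those values rest on 14, 25 and 211 UMIs. With the highest cell left out they were 0.52%, 1.06% and 3.04%, so the knockout library of day 9 came inside the gauge. NK cells of the knockout library of day 12 had 1.13 Ccl9 UMIs per Ccl6 UMI (0.93 to 1.39), with 23.2% of the Ccl9 UMIs in 1 cell.

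Ccr2 exceeded the gauge in both kinds of lymphocyte. NK cells had 591, 499, 319 and 327 CPM, which is 56.2%, 48.9%, 45.7% and 58.8% of the monocyte and macrophage level of the same library. T cells had 124, 48.2, 109 and 117 CPM, lowest in knockout at day 9. In NK cells as in monocytes, both day 12 values were below both day 9 values.

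**Figure D5:**
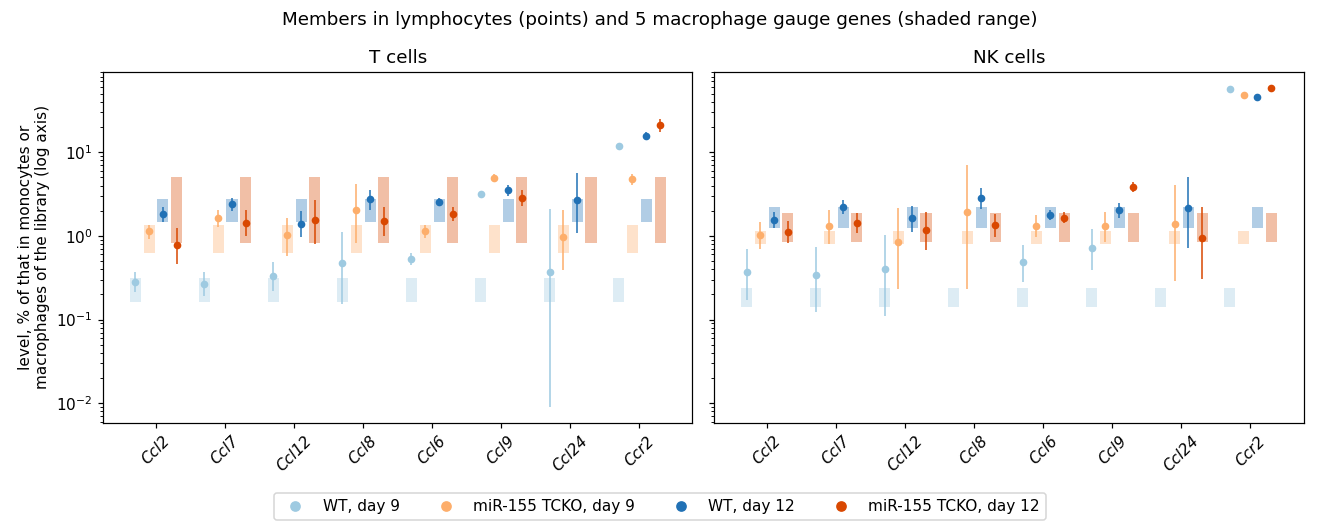
Level in T cells (left) and NK cells (right) as a percentage of the level in monocytes or macrophages of the same library (log axis), points with 95% counting intervals, shaded boxes give the range of 5 macrophage gauge genes in that library, and values of 0 are not drawn. Most chemokines lie in or near the boxes, Ccl9 lies above them in T cells of 3 libraries and in NK cells of 3 (in 2 each with the highest cell left out), and Ccr2 lies above them in all 4 libraries.

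Other genes of the CC chemokine system were read as a list of ligands, receptors and scavenging receptors. In monocytes or macrophages 12 were tested, and genotype called 4 higher (0.545% of all genes were) and 0 lower in knockout. That count was 0 with genotype as the only term, 1 of 13 with clusters, 2 by DESeq2, 3 with a stricter gate or library totals, and 6 of 20 with no low-count filter. These were Ccl17 (3.07, SE 0.36, adjusted p = 0.0129) and Ccl22 (3.17, SE 0.47, adjusted p = 0.0221), CCR4 ligands, Ccl3 (0.89, SE 0.14, adjusted p = 0.0325), an inflammatory chemokine, and Ccrl2 (0.81, SE 0.14, adjusted p = 0.048), a non-signalling receptor. Ccl17 and Ccl22 were scarce in the class, with 0.42 to 10.5 CPM and 1.26 to 21.1 CPM, and Ccl3 stood at 122, 234, 59.3 and 109 CPM. Both CCR4 ligands were far higher in mature dendritic cells in the subset fit, by 6.78 (Ccl17) and 8.87 (Ccl22) on the log2 scale. Ccl22 is itself a marker in the gate of those cells, so its value there follows in part from how they were chosen. The part of such cells in the genotype difference of both ligands was not tested. The day called Ccl22 higher at day 12 (1 of 12, against 2.49% of all genes) and Ccl3, Ccrl2 and Cx3cr1 lower (3 of 12, against 3.46%). With the day as the only term, 0 of the 12 were called. Ccl22 had 3 UMIs in the class in wild-type at day 9. The median log2 genotype difference of the 12 was 0.71, that of the 8 genes was 0.24 and that of all genes 0.01. In cDC2 none of the 10 tested genes of the list passed for either term. Ccr3, the receptor of Ccl24, had at most 0.67 CPM in monocytes or macrophages.

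The genes whose log2 levels were most like each of the 8 were taken over 41 points (myeloid and dendritic subsets of a library with at least 30 cells) and 7672 genes. For Ccl2 they were Msr1 (a scavenger receptor, r = 0.96), C3ar1 (0.96) and Slc11a1 (0.95). For Ccl7 they were C1qc (a complement subunit, 0.94), Cndp2 (0.94) and C1qb (0.93), and for Ccl12 C1qc (0.90), C3ar1 (0.90) and Maf (0.89). Ccl8 had lower values, with Abca1 (a cholesterol exporter, 0.85), P2rx4 (0.82) and Atp6v1g1 (0.81). Ccl6 was closest to Itgam (the CD11b integrin, 0.97), Clec4a2 (0.96) and Fcgr3 (0.96), and Ccl9 to Clec4a2 (0.96), Lrp1 (0.95) and Fcgr3 (0.95). Ccl24 was closest to Stab1 (a scavenger receptor, 0.86), Ninj1 (0.86) and Gab1 (0.85), and Ccr2 to Tifab (0.95), Crlf2 (0.94) and Fxyd5 (0.94). These values describe points that share libraries, and carry no test.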

How the data were processed

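Droplet 3' RNA sequencing was done on 4 libraries of sorted CD45-positive tumour cells, 1 per genotype and day. The authors deposited UMI counts, not normalized, for each gene in each barcode. Cell Ranger 2.0.2 and mm10 come from the submitters' processing notes. Members and gene lists were chosen with earlier results of these data known, and gate thresholds and clusters were set after the data were seen.

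Cells with at least 200 genes, at most 10% mitochondrial and at most 5% haemoglobin UMIs were kept. The highest Scrublet scores (scanpy 1.11.5) were removed at 0.8% per 1000 barcodes, since Scrublet's own threshold called only 1 to 22 barcodes per library. A cell took the class with the largest share of detected markers, at least 40% (3 of 7 for monocytes or macrophages, where 516 of 4499 cells were at that minimum). Cells with markers of both a lymphocyte and a myeloid class were set aside as mixed. Within the class, gates were applied in order: at least 3 of 6 non-classical markers, Lyve1, Folr2 and Cd163 at 5 per 10000 UMIs, Arg1 at 5, at least 3 of 4 Spp1 markers at 20, Cxcl9 and Cxcl10 at 20, Gbp2b with Il18bp, 1 Mrc1 UMI, then at least 5 of 7 classical monocyte markers. T cells were gated on 3 Cd3 genes. Class names stand for cells with those markers.

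UMIs were summed per class and library. edgeR 4.0.16 (quasi-likelihood, TMM, filterByExpr, Benjamini-Hochberg over all genes, adjusted p under 0.05) fitted day and genotype, or subset with library as a block. The fits were tested on simulated data. Single libraries were compared by CPM with exact Poisson intervals and ratios with exact conditional intervals. For shares, cells were thinned to 3000 UMIs, which left out 0, 0, 52 and 24 shallower monocytes or macrophages. All 8 members are named, with the called genes of a fixed list of other CC ligands and receptors, and the 3 genes most like each member (Pearson r of log2(CPM + 1)). Alternatives were DESeq2 1.42.0, other scaling, filters, gates, clusters and single terms.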

Additional observations from a re-analysis of the deposited data

Results flagged for a closer look

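In several subsets the knockout level was above wild-type at 1 day and below it at the other, each with a counting interval clear of 1. There is 1 library per genotype and day, so the differences between the days were not tested.

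In type 1 conventional dendritic cells 5 chemokines were higher in knockout at day 9 and lower at day 12. The ratios of knockout to wild-type were 26.9 and then 0.286 for Ccl2, 29.1 and 0.273 for Ccl12, 5.96 and 0.264 for Ccl7, 4.90 and 0.478 for Ccl6, and 3.94 and 0.576 for Ccl9. In these cells 1 cell held 71.8% of the Ccl12 UMIs of the knockout library of day 9, and the wild-type library of that day had 2 Ccl12 UMIs. With the highest cell of each library left out, each of the 5 kept its direction at both days. Ccl7 at day 9 stood at 3.47 (wild-type) and 20.7 CPM (knockout), the level of T cells in those libraries (3.43 and 19.97). Wild-type Ccl12 of that day (1.39 CPM) was below T cells (2.37), while Ccl2 and Ccl6 were above T cells in both libraries. Wild-type Ccl9 (40.9 CPM) was below T cells (44.2) and above NK cells (10.1). Ccl9 in those T cells was itself above the gauge, so T cells do not give its free RNA level. The part of free RNA in these ratios was not tested.

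In Cxcl9 and Cxcl10 macrophages 3 chemokines went the other way, with ratios of 0.235 at day 9 and 1.08 at day 12 for Ccl12, 0.574 and 1.40 for Ccl6, and 0.649 and 1.41 for Ccl9. The Ccl12 value of day 12 turned below 1 with the highest cell of each library left out (0.937, from 1283 against 1369 CPM), since 1 of 68 knockout cells held 20.3% of the UMIs. Ccr2 had 1.21 and 0.852 there. In type 2 conventional dendritic cells Ccl2 had 3.33 and 0.737. There 1 wild-type cell of day 9 held 86.2% of 29 UMIs, and without the highest cell of each library the ratio of that day was 18.9. In classical monocytes Ccl2 had 1.09 and 0.789.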

How the results depend on the processing

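No paired analysis was possible because each genotype and day is 1 library, and 3 libraries leave the fit of day and genotype no residual degree of freedom, so no library could be left out of it. Genotype called 1 gene of the 8 in monocytes or macrophages under all alternatives except genotype as the only term (0), with 102 genes called overall. That total became 3 with genotype alone, 219 with a mitochondrial limit of 5%, 164 with no doublet removal, 529 with no low-count filter and 202 without cells of the Lyve1, Folr2 and Cd163 gate (an alternative chosen after the data were seen, as were those of the subset fit, the clusters for ratios and the ratios in single subsets or without the highest cell). For the day, 4 of the 8 became 0 with the day alone and 7 with no filter, and 633 genes became 2 with the day alone, 289 by DESeq2 and 1470 with no filter. In cDC2 the genotype count of 0 became 1 with no filter, and the 2 genes overall became 14 with clusters, 6 by DESeq2, 13 with library totals, 11 with the 5% limit, 12 with no doublet removal, 130 with no filter and 22 with a stricter gate. The day count of 2 became 6 with clusters, 0 with the day alone and 5 with no filter, and the 15 genes overall became 118 with clusters, 6 with the day alone, 32 with library totals, 29 with the 5% limit, 33 with no doublet removal, 221 with no filter and 36 with a stricter gate. The Ccl24 day effect in cDC2 turned from -0.56 to 2.84 with clusters. Leaving out each library gave 41 to 42 called pairs of gene and subset, against 42. Scaling by library totals moved the median of all genes from -0.08 to -0.44 in mature dendritic cells and from 0.02 to 0.14 in Mrc1 macrophages. It changed the calls over all genes from 2577 higher and 2755 lower to 1789 and 3928 in mature dendritic cells, from 1788 and 1353 to 2546 and 940 in Mrc1 macrophages, from 1657 and 1244 to 1993 and 990 in classical monocytes, and from 1404 and 822 to 1838 and 615 in cDC2.

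At day 9 the ratio of knockout to wild-type over the class turned direction for Ccl2 in Cxcl9 and Cxcl10 macrophages alone (0.684), for Ccl12 in Mrc1 macrophages alone (1.48), for Ccl6 as the mean of each cell's CPM (0.953), in classical monocytes alone (0.673) and in Cxcl9 and Cxcl10 macrophages alone (0.574), and for Ccl9 in the latter 2 (0.777 and 0.649). At day 12 it turned for Ccl2 in classical monocytes (0.789), for Ccl7 in classical monocytes (0.999) and Cxcl9 and Cxcl10 macrophages (0.883), and for Ccl12 by mean UMIs per cell (1.02), in Cxcl9 and Cxcl10 macrophages (1.08) and in Mrc1 macrophages (1.03). The cause was not tested.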

Other observations

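In wild-type at day 12, 30 plasmacytoid dendritic cells had 548 CPM of Ccl2, 737 CPM of Ccl12 and 442 CPM of Ccl8, and 1 cell held 75.6%, 87.5% and 96.9% of those UMIs. In the cells with both lymphocyte and myeloid markers Ccl24 reached 287 CPM in knockout at day 9, with 44.5% of the UMIs in 1 cell, against 14.7 CPM in wild-type, all from 1 cell.

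Among monocytes and macrophages of the wild-type library of day 12, 91.8% of cells with a Ccl12 UMI also had a Ccl2 UMI, against 69.1% of those without, and in knockout the shares were 90.8% and 67.5%. Of cells with a Ccl8 UMI 70.8% had a Ccr2 UMI in wild-type, against 83.1% of those without, and 60.8% against 74.2% in knockout. Both pairs were read at thinned depth.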
